A study of Mus musculus with 6 samples.

Results

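The 10 genes described here are textbook targets or mediators of RANKL in the osteoclast, examined at the level of chromatin in an epithelium that the same cytokine also acts on. They were taken by name and comprised the transcription factor genes Nfatc1 and Mitf, the adaptor gene Traf6, the receptor genes Oscar and Calcr, the cell fusion genes Dcstamp and Ocstamp, and the enzyme genes Acp5, Ctsk and Mmp9. A window was taken as theirs when the nearest end of a protein-coding gene, at most 50 kb away, was that of one of them, which gave 25 of 55056 windows of 200 bp (mm10, GRCm38). The assay was bulk ATAC-seq, in which Tn5 transposase tags open DNA. Mouse small intestinal organoids of a single line, carrying Lgr5GFPDTR/+ in both groups, were treated with RANKL at 100 ng/mL for 6 days (n = 3) or kept in ENR medium as controls (n = 3). Before RANKL the treated cultures had 3 days of CHIR99021 at 3 µM with valproic acid at 1.5 mM and 1 day of ENR, and whether controls had these agents is not stated. In the submitters' names, control libraries carry the prefix CVENR, whose meaning is left unexplained. Any effect of the agents and that of RANKL therefore cannot be told apart on the labels' wording alone. The replicates were numbered as separate differentiation experiments.

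In bone, RANKL binds its receptor RANK on myeloid precursors, RANK recruits TRAF6, and NF-kB and AP-1 then induce NFATc1, which together with MITF and PU.1 switches on the genes of fusion and bone resorption. In the gut, RANKL from stromal cells acts on RANK of the follicle-associated epithelium and drives the differentiation of microfold (M) cells, which carry antigens across the epithelium. Whether the loci of the osteoclast response were open in this epithelium, and whether they changed with RANKL, is the question taken up here. In bulk chromatin more cells of a type and more open DNA per cell cannot be told apart.

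Deposited counts summed to 322173 to 466521 in the shallower RANKL libraries and 828445 in RANKL replicate 3, and to 455083 to 976881 in the controls. On these totals 3 counts were worth 3.07 to 9.31 CPM, the count scaled to a common library total. In the window values below, scaled to tested windows, 3 counts were 3.95 CPM in control replicate 2 and 12.2 CPM in RANKL replicate 1. All 10 epithelial markers had windows, among them Epcam, Cdh1, Vil1 and Cdx2, with 1 of 9 tested changed (Krt18, lower). Of 7 tested M cell markers 5 rose, where 6.95% of all tested gene sums rose, 8.48% fell and 15.4% did either, and the summed level of the list was 707 to 834 CPM in RANKL and 330 to 405 CPM in control libraries. Sox8, H2-M2, Msln and Marcksl1 had 0 to 12 counts in control libraries and passed the count filter before testing only through RANKL libraries. Being tested thus favoured a rise, and 6.95% is no like background for them. Without a filter H2-M2, Msln and Marcksl1 were still called higher (edgeR). The myeloid markers, which mark the cells that make osteoclasts, had windows at 9 of 12 genes and none at Cd68, Lyz2 and Tyrobp. Of all protein-coding genes 27.0% had no window. The summed level of the myeloid markers was 203 to 291 CPM in RANKL and 269 to 327 CPM in control libraries. None of the 5 tested myeloid markers was called (edgeR), 1 had an unadjusted p under 0.05, and DESeq2 called 0. Over all gene sums, 3508 of 12471 tested had an unadjusted p under 0.05, in either direction. The part of myeloid cells in the results below was not tested.

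RefSeq promoters (GRCm38.p6, 250 bases before to 50 after a transcription start) matched 6 of the 10 genes, with 11 promoters in all. Of the 11, 2, those of Traf6 and the first start of Mitf, overlapped a window, against 40.2% of 21262 promoters of protein-coding genes. The promoters below show the base composition at these genes' starts with and without a window, with CpG dinucleotides in capitals.
Traf6, chr2:101678170-101678469, plus strand, overlapping a window: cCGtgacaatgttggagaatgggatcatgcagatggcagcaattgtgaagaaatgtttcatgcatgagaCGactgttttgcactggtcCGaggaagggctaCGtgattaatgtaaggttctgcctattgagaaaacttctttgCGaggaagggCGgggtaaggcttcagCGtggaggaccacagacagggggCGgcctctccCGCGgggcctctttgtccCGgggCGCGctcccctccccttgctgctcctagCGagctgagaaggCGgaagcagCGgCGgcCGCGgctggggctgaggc
Mitf first start, chr6:97806808-97807107, plus strand, overlapping a window: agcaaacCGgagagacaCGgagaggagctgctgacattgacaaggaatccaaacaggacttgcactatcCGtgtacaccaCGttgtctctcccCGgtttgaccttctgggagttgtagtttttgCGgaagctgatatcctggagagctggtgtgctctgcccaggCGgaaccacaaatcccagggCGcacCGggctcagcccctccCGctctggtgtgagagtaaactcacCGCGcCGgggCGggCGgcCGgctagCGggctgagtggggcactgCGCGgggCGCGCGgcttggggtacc
Calcr inner start, chr6:3763574-3763873, minus strand, no window: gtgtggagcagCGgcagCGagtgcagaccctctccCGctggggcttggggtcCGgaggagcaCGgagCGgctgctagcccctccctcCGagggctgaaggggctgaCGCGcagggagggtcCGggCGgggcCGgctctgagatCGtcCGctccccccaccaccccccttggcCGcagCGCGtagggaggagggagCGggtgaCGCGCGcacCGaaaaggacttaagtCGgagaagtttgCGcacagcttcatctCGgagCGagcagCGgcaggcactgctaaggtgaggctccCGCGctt
Oscar, chr7:3616108-3616407, minus strand, no window: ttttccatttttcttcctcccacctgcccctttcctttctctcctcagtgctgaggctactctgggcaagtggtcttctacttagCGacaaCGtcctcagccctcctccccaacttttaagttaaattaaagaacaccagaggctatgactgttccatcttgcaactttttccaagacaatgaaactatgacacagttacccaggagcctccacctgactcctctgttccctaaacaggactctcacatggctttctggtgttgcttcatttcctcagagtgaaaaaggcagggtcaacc
Ctsk, chr3:95498960-95499259, plus strand, no window: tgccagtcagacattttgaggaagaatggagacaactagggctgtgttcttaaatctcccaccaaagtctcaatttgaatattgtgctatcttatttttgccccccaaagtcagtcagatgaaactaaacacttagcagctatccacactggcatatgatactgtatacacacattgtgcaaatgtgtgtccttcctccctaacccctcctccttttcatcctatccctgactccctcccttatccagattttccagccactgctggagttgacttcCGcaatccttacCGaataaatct

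The Traf6 promoter held 19 CpG and the Mitf promoter 22, whereas Oscar and Ctsk, which encode proteins largely restricted to osteoclasts and related cells, held 2 each. Across all promoters, 62.8% of those with at least 10 CpG overlapped a window and 10.4% of those with fewer. The inner Calcr promoter, with 29 CpG and a GC content of 70.0%, and an Acp5 promoter with 17 CpG overlapped none. Thus 2 of the 4 CpG-rich promoters, in a set without Nfatc1, overlapped a window. The other 7 promoters had 2 to 8 CpG and no window.

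**Figure D1:**
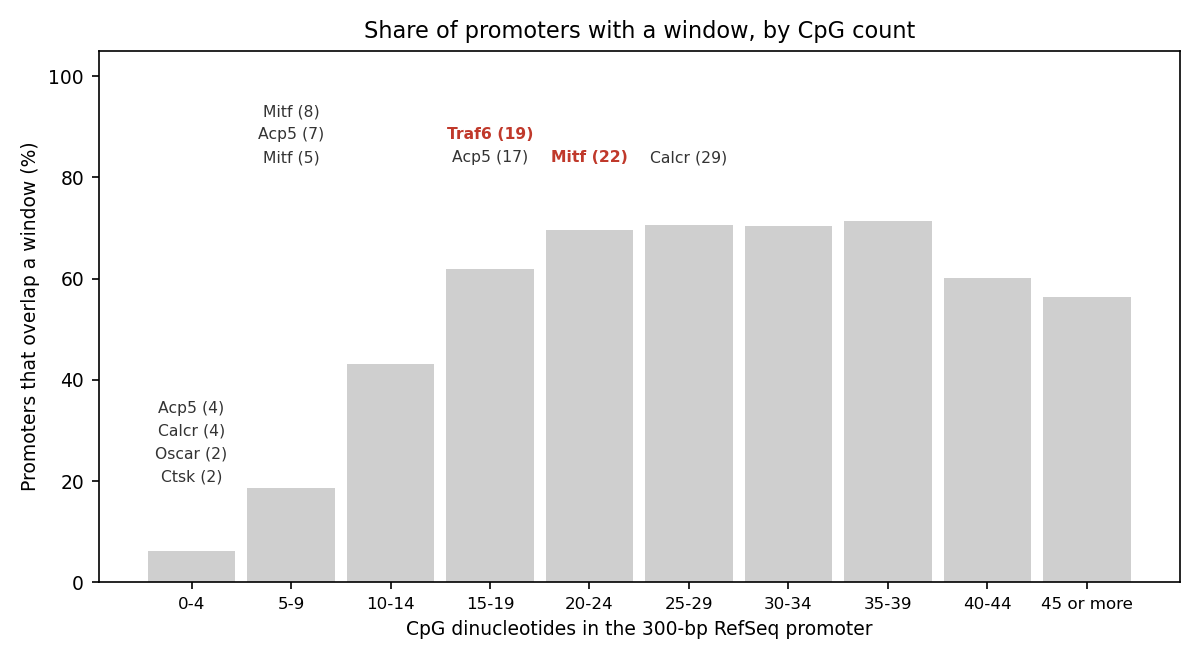
Grey bars give the percentage of 300-bp RefSeq promoters that overlap a 200-bp window, by number of CpG dinucleotides (x axis). Gene names with CpG counts mark the 11 promoters of the osteoclast genes in their class at arbitrary height, and red names, Traf6 with 19 CpG and Mitf with 22, are those that overlap a window. Promoters on chromosome 18, and so any of Nfatc1, were left out of the 11 and of the names, but not of the bars.

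Letters known from osteoclast gene regulation were searched on both strands of the promoters. The NFAT core TGGAAA was found in 4 of the 11 promoters and in 19.3% of all promoters, with 2 matches at Oscar and 1 at Ctsk. The PU.1 core GAGGAA was found in 3 of the 11 and in 27.4% of all, with 2 matches each at Oscar, Ctsk and Traf6. The AP-1 letters TGANTCA and the E-box CACGTG bound by MITF were in none of the 11 promoters, against 6.99% and 7.84% of all, and the M-box TCATGTG was in 1, an Acp5 promoter, against 2.99%. None of these motifs lies within another, though several can overlap at their ends. These matches describe letters in the promoter and not binding.

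Counts were low at most of the 25 windows. Ranked among all windows by mean CPM, 8 of the 25 lay at or above the median in RANKL libraries and 15 in controls, and the median percentile was 39.5 in RANKL and 53.0 in control libraries. The top 10% held 4 in RANKL and 1 in control libraries. Of the 25, 13 lay inside the body of a member and 12 outside any protein-coding gene. Only 8 had enough counts for a test, and a count of 3 or less occurred in at least 1 library at 18. CPM values of windows are scaled to counts in tested windows, and those of gene sums to counts in tested genes.

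Of the 8 tested windows 1 rose and 1 fell with RANKL (edgeR quasi-likelihood test, Benjamini-Hochberg adjusted p at or under 0.05 over 21618 windows), where 10.0% of all tested windows rose, 10.0% fell and 20.1% did either. The window that rose lies 21141 bp beyond Calcr, and the one that fell lies in Nfatc1. In 5 of the 8, the 3 RANKL libraries all lay on the same side of the 3 controls, against 33.4% of all tested windows. Counts in 2-kb windows around the same centres, recovered from the deposited scores, allowed a test of 23 of the 25. There 1 was called higher, again that of Calcr (background 8.37%), and 0 lower (background 10.2%), with 2 higher and 3 lower at an unadjusted p under 0.05, while DESeq2 called 1 higher and 0 lower. At 200 bp, 6754 of all 21618 tested windows had an unadjusted p under 0.05, and the like count for 2 kb is not given. The groups did not overlap at 4 of the 23, against 32.8% of all 2-kb windows tested.

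**Figure D2:**
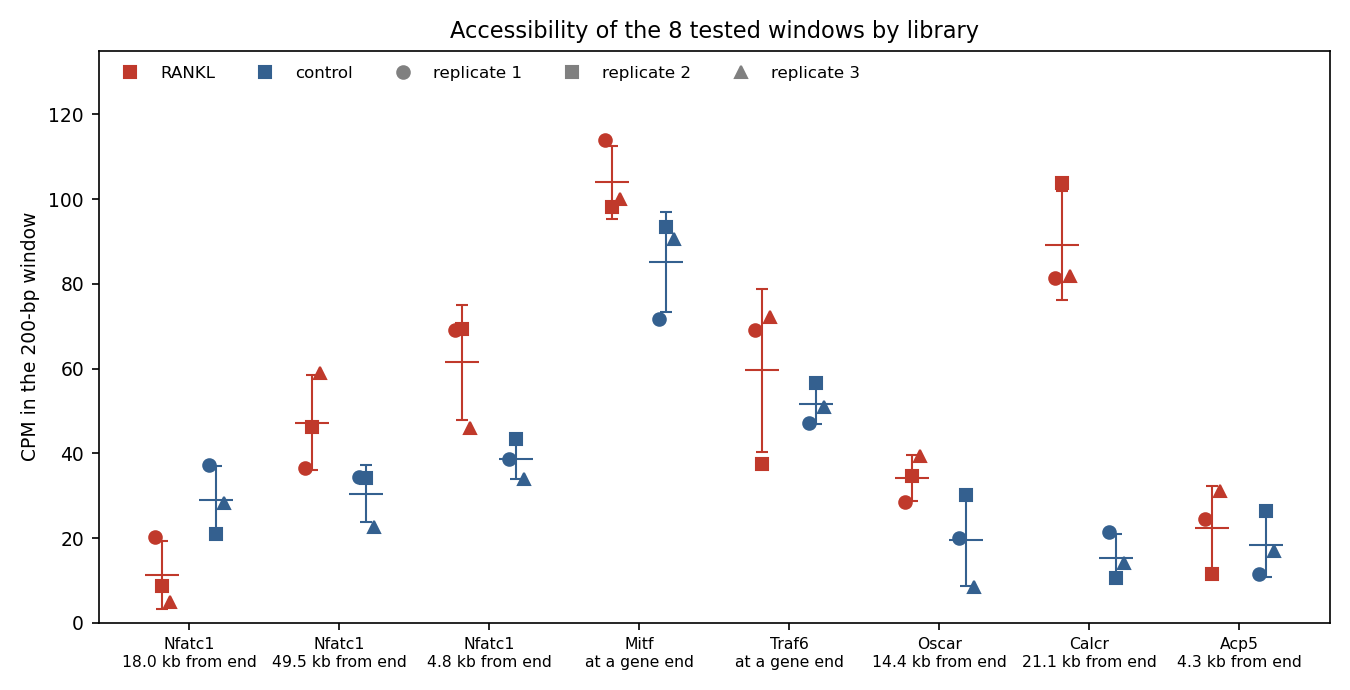
Accessibility in CPM (y axis) of the 8 tested windows in each library, RANKL in red and control in blue, with symbols for the replicates, horizontal marks for group means and bars for SD (n = 3). RANKL libraries stand at 81.4 to 104 CPM at the Calcr window, against 10.5 to 21.5 CPM in control libraries, and the groups overlap at Traf6, Oscar and Acp5.

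Calcr encodes the calcitonin receptor, a G protein-coupled receptor through which calcitonin restrains osteoclasts. Its rising window lies at chromosome 6, 3664338 to 3664537, 21141 bp beyond the 3′ end of Calcr, outside any protein-coding gene and 60807 bp from Vps50 on its other side. It held 20, 36 and 50 counts in RANKL replicates 1, 2 and 3 and 15, 8 and 5 in control replicates 1, 2 and 3, which is 81.4, 104 and 81.9 CPM with RANKL and 21.5, 10.5 and 14.1 CPM in controls. All RANKL libraries were therefore far above all controls, although the RANKL libraries include the shallowest one. The mean was 89.1 ± 12.9 CPM with RANKL and 15.4 ± 5.58 CPM in controls (SD, n = 3 each), a 5.66-fold difference with a log2 fold change of 2.50 ± 0.32 (± SE, by edgeR, adjusted p = 2.071e-12). Among all windows its mean level stood at percentile 96.4 in RANKL libraries, against 53.8 in controls, and 525 of the 21618 tested windows had a larger log2 fold change. This window passed the count filter through the RANKL libraries, and without a filter it stayed called (edgeR adjusted p = 1.309e-12).

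The 2-kb counts at this place were 42, 71 and 117 with RANKL and 27, 32 and 9 in controls, with a log2 fold change of 2.04 ± 0.24 (± SE, by edgeR, adjusted p = 1.104e-09). In CPM, where depth is taken out, all RANKL libraries again lay above all controls. No window overlapped a Calcr promoter, and the nearest was 30408 bp from a start. The window inside its body, at 3725687 to 3725886, held 0, 1 and 8 counts with RANKL and 2, 1 and 0 in controls. The one 30408 bp beyond the 5′ end, at 3795121 to 3795320, held 0, 0 and 4 counts with RANKL and 7, 1 and 1 in controls. Neither had enough counts for a test at 200 bp, and in 2-kb counts the one beyond the 5′ end was not called (log2 fold change -0.88, edgeR adjusted p = 0.588) and the other was not tested. Summed over its 3 windows Calcr had 91.3 ± 11.9 CPM with RANKL and 21.3 ± 11.02 CPM in controls (SD, n = 3 each), a log2 fold change of 2.07 ± 0.30 (± SE, by edgeR, adjusted p = 1.607e-09), and 86 of 12471 tested genes had a larger one. The nearest gene need not be the one that a distal window serves.

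Nfatc1, the master transcription factor of osteoclasts and itself induced by RANKL there, had 9 windows within 50 kb, 7 of them in its body at chromosome 18, 80606205 to 80713071. Only 1.07% of genes with windows had 9 or more. These windows did not move together. The sum over the locus was 156, 175 and 132 CPM in RANKL replicates 1, 2 and 3 and 188, 136 and 162 CPM in control replicates 1, 2 and 3. The groups overlapped, with a log2 fold change of -0.10 ± 0.16 (SE, 95% interval -0.42 to 0.22, edgeR adjusted p = 0.7279).

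The window that fell, at 80624220 to 80624419 and 18015 bp inside the lower-coordinate end of the gene, held 5, 3 and 3 counts in RANKL replicates and 26, 16 and 10 in control replicates. That is 20.3, 8.66 and 4.92 CPM with RANKL and 37.2, 21.0 and 28.3 CPM in controls, so that the highest RANKL library came just under the lowest control. The log2 fold change was -1.59 ± 0.55 (± SE, by edgeR, adjusted p = 0.0239). The call rests on few counts: it ended with the experiment as a block (adjusted p = 0.07435), with DESeq2 (0.1306), without RANKL replicate 2 (0.06953) or RANKL replicate 3 (0.2715), and in the 2-kb counts (-0.73 ± 0.36, 0.1553). It also ended without a filter (edgeR adjusted p = 0.05139). The window passed the count filter through the controls, where it was high, and fell below that filter without control replicate 1. The window took 23.4% of its 2-kb reads in RANKL libraries and 52.0% in controls, while over all windows this central share was 33.9% to 36.5% in RANKL and 39.9% to 41.0% in control libraries. The share is built on the same 200-bp counts as the call. A lower share with RANKL also occurred at untested windows, such as that at 80634425 (15.4% against 47.3%), and a higher one at others, such as that of Mitf (56.7% against 50.5%).

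The most accessible windows of Nfatc1 pointed the other way without passing the test. At 80708101 to 80708300, 4771 bp inside the higher-coordinate end, RANKL replicates had 69.2, 69.3 and 45.9 CPM and control replicates 38.7, 43.4 and 33.9 CPM. At 80655706 to 80655905, near the middle of the gene, they had 36.6, 46.2 and 59.0 CPM with RANKL and 34.4, 34.2 and 22.6 CPM in controls. In both places every RANKL library lay above every control, by a narrow margin, with log2 fold changes of 0.56 ± 0.29 and 0.65 ± 0.32 (± SE, by edgeR, adjusted p = 0.1693 and 0.1501). In the 2-kb counts they were 0.18 ± 0.19 and 0.48 ± 0.22 (adjusted p = 0.5716 and 0.1224). The other 6 windows of the locus held 0 to 7 counts with RANKL and 0 to 15 in controls and were not tested at 200 bp.

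**Figure D3:**
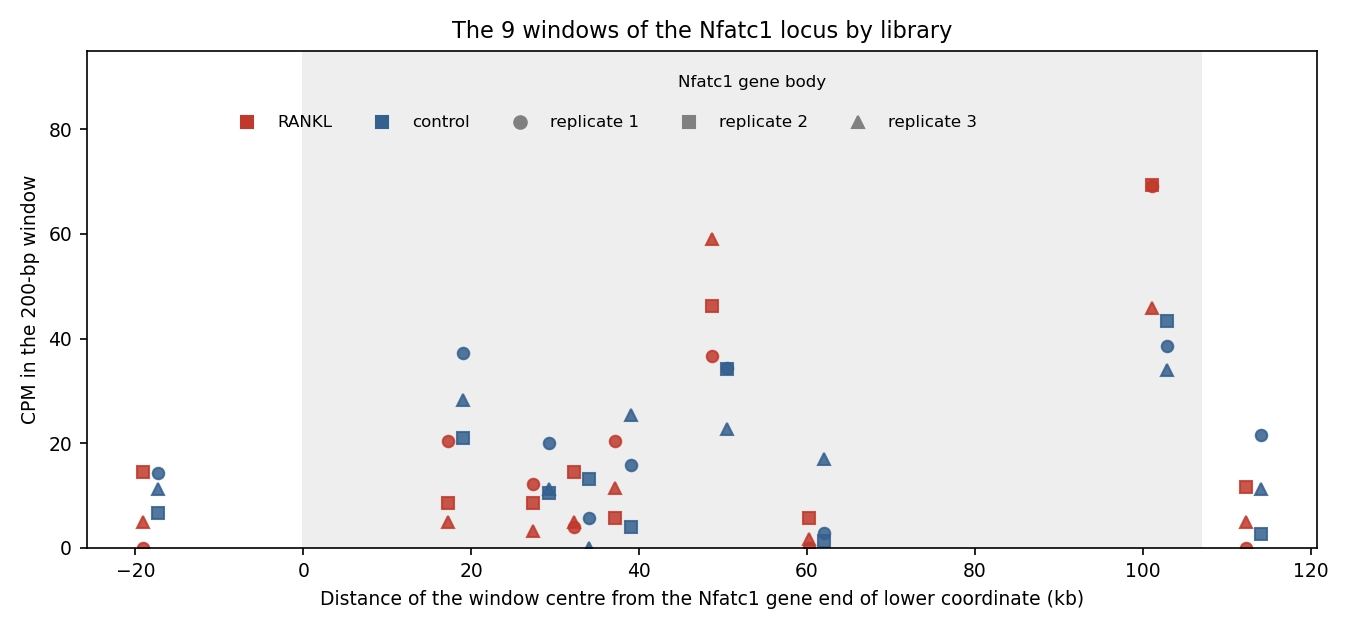
CPM of the 9 windows of the Nfatc1 locus (y axis) against distance in kb from the gene end of lower coordinate (x axis), with RANKL libraries in red, control libraries in blue, a symbol for each replicate the gene body shaded and the groups offset sideways at each window. RANKL points lie above control points at the window near the middle of the gene and at the one near its higher-coordinate end, and below them at 18015 bp.

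Over the 6 libraries, the genes whose summed log2 CPM followed Nfatc1 most closely were Ppp2r2c, Gm15501 and Aldh18a1, with Pearson r of 0.99, 0.98 and 0.98 among 12470 genes. Their log2 fold changes were -0.17, -0.18 and -0.11, all below 0 like that of Nfatc1. Since the 3 genes were chosen by correlation over the same libraries, this likeness comes with the choice. With 6 points, 30 genes had r of at least 0.9.

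Mitf encodes the basic helix-loop-helix factor that acts with NFATc1 and PU.1 on osteoclast enzyme genes. Its window at the first start, chromosome 6, 97806835 to 97807034 and 24 bp upstream of that start, was the most accessible of the 25 windows in both groups, at percentile 97.8 in RANKL and 96.2 in control libraries. It had 114, 98.1 and 99.9 CPM in RANKL replicates and 71.6, 93.4 and 90.5 CPM in control replicates. Every RANKL library lay above every control, but the change did not pass the test, with a log2 fold change of 0.28 ± 0.19 (SE, 95% interval -0.10 to 0.66, edgeR adjusted p = 0.3375). The 2-kb estimate had the other sign, -0.21 ± 0.17 (adjusted p = 0.4518). A window deep in Mitf, 87835 bp from its nearer end and outside the 50-kb limit, held 0, 1 and 10 counts with RANKL and 0, 1 and 0 in controls.

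Traf6, the adaptor and ubiquitin ligase that couples RANK to NF-kB, was open at its start in both groups. The window at chromosome 2, 101678274 to 101678473, spans the start and had 69.2, 37.5 and 72.1 CPM in RANKL replicates and 47.3, 56.6 and 50.9 CPM in control replicates. RANKL replicate 2 fell below every control and the others above, so the groups overlapped, with a log2 fold change of 0.23 ± 0.26 (SE, 95% interval -0.28 to 0.75, edgeR adjusted p = 0.585). The window 12868 bp upstream held 3, 8 and 7 counts with RANKL and 17, 15 and 7 in controls and was not tested. Summed, Traf6 had a log2 fold change of -0.02 ± 0.24 (SE, 95% interval -0.48 to 0.44).

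Oscar, an immunoglobulin-like receptor for collagen that costimulates osteoclast precursors through the Fc receptor gamma chain, had 5 windows, all downstream of its start, 4 of them beyond its 3′ end. The tested one, at chromosome 7, 3595251 to 3595450, had 28.5, 34.6 and 39.3 CPM in RANKL replicates and 20.05, 30.3 and 8.49 CPM in control replicates. The groups overlapped at control replicate 2 (log2 fold change 0.71 ± 0.40, SE, edgeR adjusted p = 0.2149). The farthest window, 35976 bp from the gene, held 0, 3 and 11 counts with RANKL and 0 in every control, too few for a test at 200 bp. The window in the gene body went the other way in counts, with 2, 4 and 5 in RANKL replicates and 16, 26 and 3 in control replicates, and control replicate 3 overlapped the RANKL libraries. In 2-kb counts both were uncalled (log2 fold changes 1.17 ± 0.67 and -0.99 ± 0.47, adjusted p = 0.2426 and 0.1434), and without control replicate 3 both were called (2.44 and -1.33, adjusted p = 0.03426 and 0.03516). The gene-body window was then also called lower at 200 bp (-1.63, adjusted p = 0.03835). The 5 windows summed to 71.3 ± 18.03 CPM with RANKL and 73.5 ± 19.8 CPM in controls (SD, n = 3 each).

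Of the 3 enzyme genes only Acp5, which encodes tartrate-resistant acid phosphatase, the classical stain of osteoclasts, had a testable window. It lies in the gene, 412 bp downstream of an annotated start, at chromosome 9, 22131254 to 22131453. It had 24.4, 11.5 and 31.1 CPM in RANKL replicates and 11.5, 26.3 and 16.97 CPM in control replicates, which overlap throughout (log2 fold change 0.33 ± 0.48, SE, edgeR adjusted p = 0.6815). Its window 1550 bp upstream of the outermost start held 4, 5 and 7 counts with RANKL and 21, 21 and 5 in controls, with a 2-kb log2 fold change of -0.79 ± 0.35 (edgeR adjusted p = 0.1134). The Acp5 sum had a log2 fold change of -0.26 ± 0.29 (SE, 95% interval -0.83 to 0.30).

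Ctsk encodes cathepsin K, the collagenase of bone resorption, and had a single window, 8182 bp beyond its 3′ end in the direction of Ctss. It held 0, 3 and 8 counts with RANKL and 9, 4 and 0 in controls. Mmp9, a gelatinase gene, had a single window inside its body, 2338 bp from the nearer end, with 3, 3 and 4 counts in RANKL replicates and 8, 7 and 2 in control replicates. Both windows were below the filter and stood at percentiles 22.6 and 30.6 in RANKL libraries and 22.7 and 33.5 in control libraries. Their 2-kb counts of 8 to 19 with RANKL and 2 to 19 in controls gave log2 fold changes of 0.61 ± 0.55 and 0.71 ± 0.52 (SE, edgeR adjusted p = 0.5145 and 0.3893). No difference was called at these loci.

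The fusion genes Dcstamp and Ocstamp, whose transmembrane products are needed for osteoclast precursors to fuse, had no window of their own, as did 27.0% of protein-coding genes. The window nearest Dcstamp lay 52931 bp away and is assigned to Dpys, with 0, 2 and 1 counts in RANKL replicates and 2, 8 and 7 in control replicates. The window nearest Ocstamp lay 68817 bp away and is assigned to Elmo2. The table of windows thus holds no measurement at either gene, in either group.

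**Figure D4:**
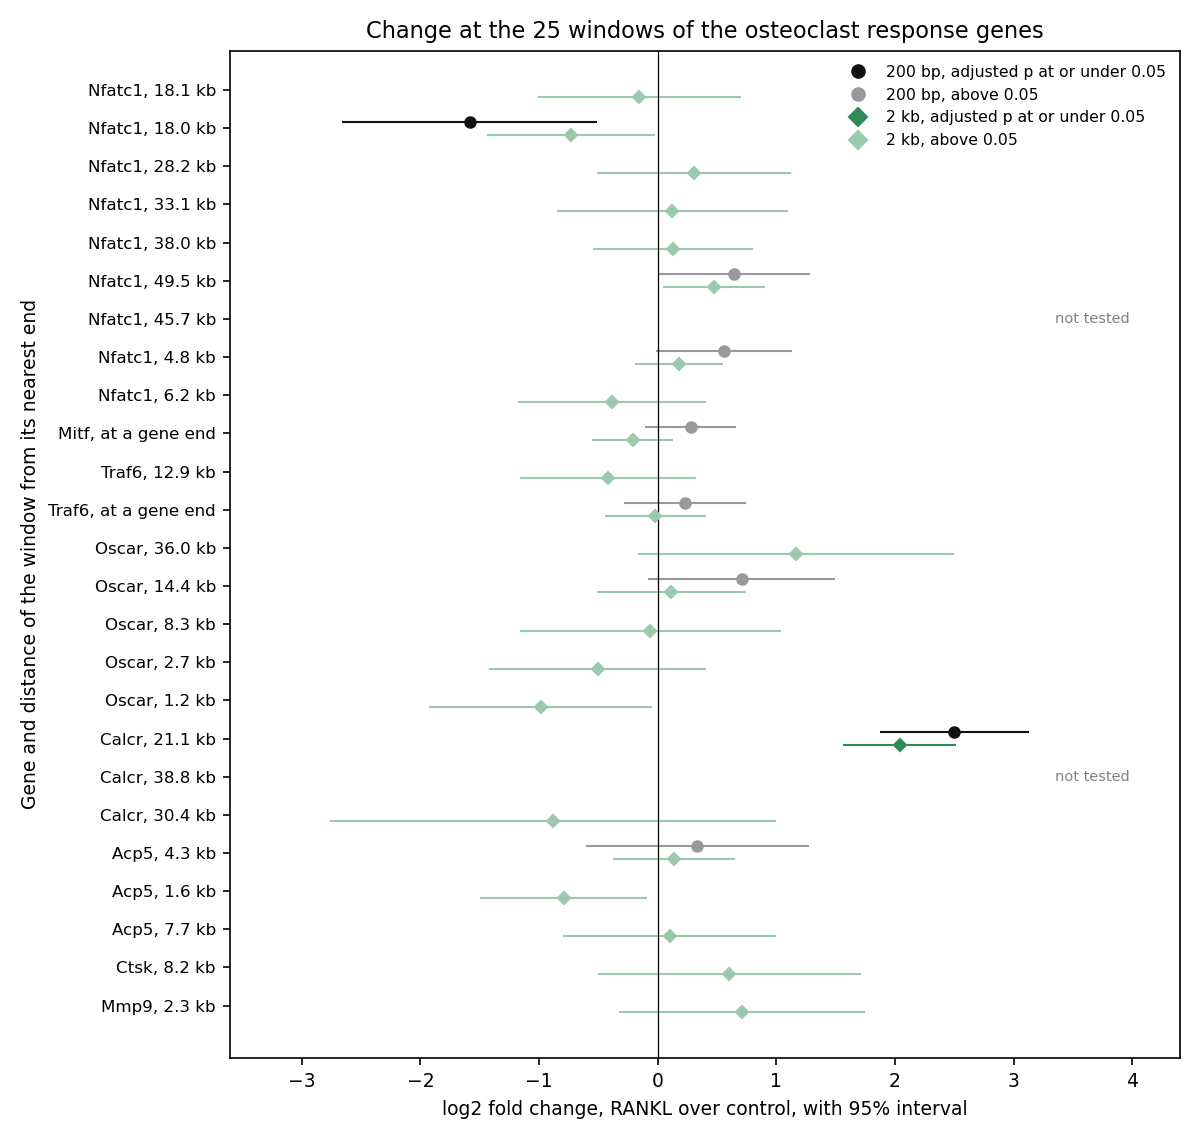
Log2 fold change with 95% interval (x axis, RANKL over control) of each of the 25 windows, named by gene and distance from its nearest end, for 200-bp counts (circles, 8 tested) and 2-kb counts (diamonds, 23 tested), darker where the adjusted p is at or under 0.05. The Calcr window 21141 bp from the gene is called in both widths, and the Nfatc1 window 18015 bp inside the gene in 200-bp counts alone.

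Counted by gene, 6 of the 10 could be tested in the sum over their windows, and 1 rose (Calcr) and 0 fell, where 6.95% of all tested genes rose and 8.48% fell. At an unadjusted p under 0.05 the count was also 1 higher and 0 lower, and DESeq2 called 1 higher and 0 lower. In sums of 2-kb counts, 8 genes were tested, with 1 higher and 0 lower (backgrounds 9.25% and 12.5%).

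Genes around these 10 in the RANK pathway were taken from lists, and counts below are of gene sums in the same edgeR test. Their background at an unadjusted p under 0.05 is 3508 of 12471 tested genes, in either direction. The share called by DESeq2 over all genes is not given, so its counts for the lists have no background. Of 19 tested adaptors and kinases of RANK signalling 6 rose, 1 fell and 12 were not called, with a median log2 fold change of 0.23, against 0.01 over all tested genes. DESeq2 called 2 of the list higher, Traf2 and Src, and 0 lower. Traf2 had 151 ± 28.4 CPM with RANKL and 82.3 ± 18.1 CPM in controls (SD, n = 3 each), a log2 fold change of 0.83 ± 0.19 (± SE, by edgeR, adjusted p = 0.0004875). Src, the kinase that organises the sealing zone of osteoclasts, rose by 0.70 ± 0.20 and Tnfaip3, a deubiquitinase induced by NF-kB, by 0.52 ± 0.15. In windows within 5 kb of a gene end the calls of Traf2 (log2 fold change 0.37), Tnfaip3 (0.33) and Src (-0.04) ended, and that of Tnfaip3 also without control replicate 2 (adjusted p = 0.1844). Traf3, Traf5 and Tnfrsf11a, the gene of RANK itself, also rose, by 0.70 ± 0.22, 0.54 ± 0.20 and 0.49 ± 0.15, and Tab3, a partner of the kinase TAK1, fell by 0.58 ± 0.18 (these 4 named after their values were seen). Traf6 was not called. The difference between Traf6 and its relatives was not tested.

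The paralogs of the 2 transcription factors are the NFAT genes Nfatc2, Nfatc3, Nfatc4 and Nfat5 and the MiT genes Tfe3, Tfeb and Tfec. Of the 7, 1 rose and 0 fell, 4 had an unadjusted p under 0.05 and higher values, and DESeq2 called 1, with a median log2 fold change of 0.52. Such an unadjusted p was found for 3508 of all 12471 tested genes, in either direction. Tfec, the MiT member known mainly from macrophages and osteoclasts, had 35.1, 35.5 and 23.0 CPM in RANKL replicates and 9.87, 3.92 and 5.69 CPM in control replicates. All RANKL libraries were above all controls, from 9 to 15 counts with RANKL and 2 to 7 in controls (log2 fold change 2.15 ± 0.61, SE, edgeR adjusted p = 0.006057). The Tfec call ended without RANKL replicate 2 (adjusted p = 0.06602) or control replicate 2 (0.08832). Tfec passed the count filter only through RANKL libraries, and without a filter it stayed called (edgeR adjusted p = 0.01136). Nfatc4, Nfatc3 and Tfeb had log2 fold changes of 0.81 ± 0.37, 0.58 ± 0.25 and 0.52 ± 0.24, Tfe3 and Nfat5 of 0.30 ± 0.26 and 0.27 ± 0.22, and Nfatc2 of -0.17 ± 0.14 (SE), none called. Without RANKL replicate 1 Nfatc3 was called (0.71, adjusted p = 0.04923), without control replicate 1 Tfeb (0.80, 0.04986), and in 2-kb sums Nfat5 (0.44, 0.02954).

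Other osteoclast transcription factor genes had 3 of 14 higher and 0 lower, with a median of 0.11, while DESeq2 called 1 higher and 0 lower, and 4 were higher and 0 lower at an unadjusted p under 0.05. The NF-kB subunit genes Nfkb2 and Rela rose by 0.80 ± 0.20 and 0.69 ± 0.21 and the AP-1 gene Junb by 0.94 ± 0.31 (log2 fold change, SE). The Junb call ended with DESeq2 (adjusted p = 0.1261), with the experiment as a block (0.08395), without RANKL replicate 3 (0.3034), control replicate 1 (0.104) or control replicate 2 (0.09236), and in 2-kb counts (0.21). The Rela call ended with DESeq2 (adjusted p = 0.06522), without RANKL replicate 3 (0.06651) or control replicate 1 (0.079). Fos, which is required for osteoclasts, had 0.06 ± 0.13 (chosen after its value was seen). Of 10 repressors of osteoclast differentiation 1 rose (Zbtb7a, 0.45 ± 0.16) and 2 fell, Irf8 by 0.57 ± 0.20 and Bcl6 by 0.70 ± 0.25 on the log2 scale. All 3 calls ended with the experiment as a block (adjusted p = 0.1099, 0.07977 and 0.07737) and with DESeq2. They also ended without RANKL replicate 2, RANKL replicate 3, control replicate 1 or control replicate 2, and those of Zbtb7a and Bcl6 without RANKL replicate 1 (adjusted p of 0.0577 to 0.247).

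Of 17 tested genes of costimulation and calcium signalling 1 rose and 2 fell (median -0.06), and DESeq2 called 1 higher and 1 lower. Itpr3, an inositol trisphosphate receptor gene, rose by 0.90 ± 0.21, while its relative Itpr1 fell by 0.52 ± 0.13 and Ppp3ca, which encodes a catalytic subunit of calcineurin, the activator of NFAT, fell by 0.37 ± 0.11 (log2 scale, SE). The Ppp3ca call ended with DESeq2 (adjusted p = 0.1048), without RANKL replicate 3 (0.3497) or control replicate 2 (0.0609), and with windows assigned to gene bodies (0.1672). Tyrobp and Fcer1g, adapter genes whose products carry the signal of receptors such as OSCAR, had no window. Trem2 had a single one, too shallow to test.

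Resorption and acid secretion genes, such as the proton pump gene Tcirg1 and the carbonic anhydrase gene Car2, had 0 higher and 0 lower of 13 tested in edgeR and in DESeq2, with 1 higher and 1 lower at an unadjusted p under 0.05 and a median of -0.08. Of 10 adhesion and fusion genes 2 rose and 2 fell (median 0.18). Vav3 fell by 0.66 ± 0.16 and Cd44 by 0.48 ± 0.14, and Sh3pxd2a, a podosome scaffold gene, rose by 0.47 ± 0.15 (log2 scale, SE), as did Cd9, a tetraspanin gene named after its value was seen, by 0.41 ± 0.15. The Cd44 call ended without RANKL replicate 3 or control replicate 1 (adjusted p = 0.05737 and 0.09093), and that of Sh3pxd2a without RANKL replicate 1, RANKL replicate 3 or control replicate 1 (0.0586, 0.07838 and 0.116). DESeq2 called 1 of these 10, lower. For scale, the M cell markers H2-M2, Msln and Marcksl1 had log2 fold changes of 4.32 ± 0.52, 2.85 ± 0.49 and 2.52 ± 0.34, and the list a median of 2.52. These 3 passed the count filter through RANKL libraries, and the median is of tested genes only.

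**Figure D5:**
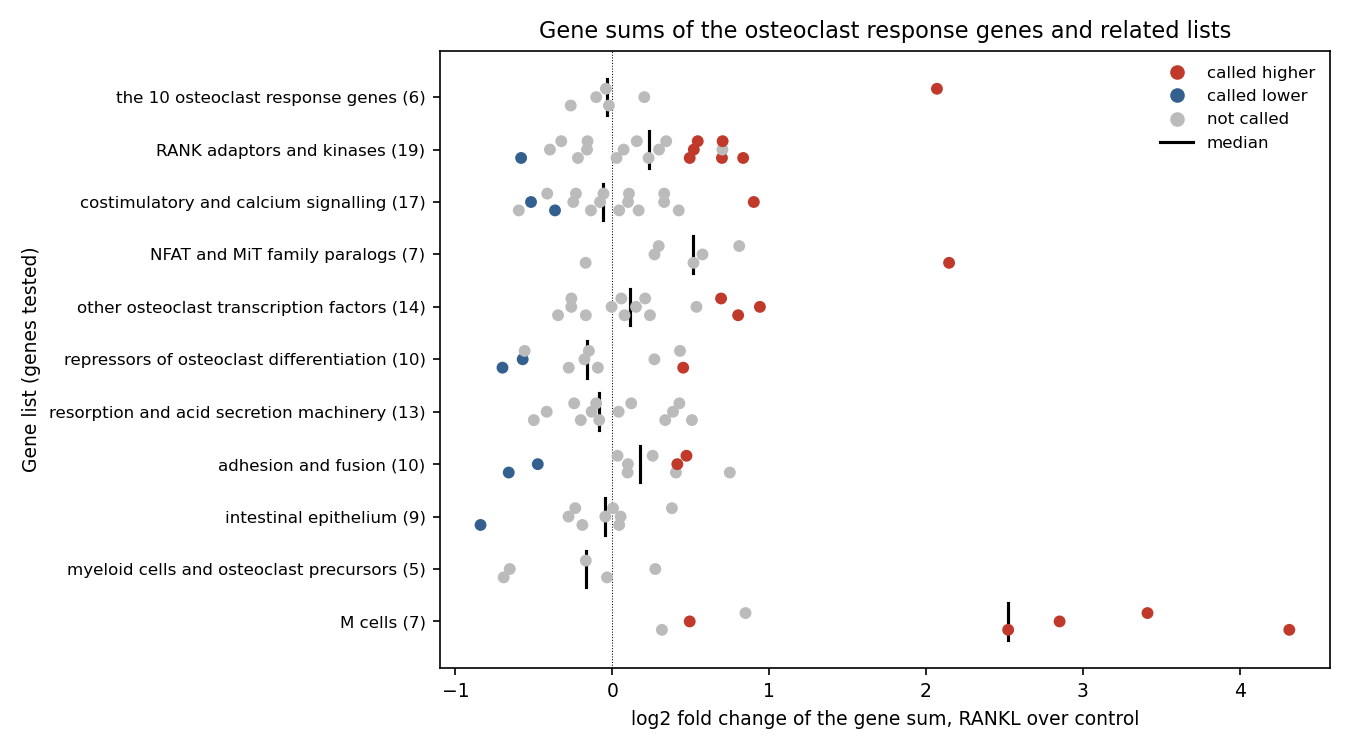
Log2 fold change of gene sums (x axis, RANKL over control) for the tested osteoclast response genes, the related pathway lists and the marker lists, with each list's number of tested genes, and with red for called higher, blue for called lower, grey for not called and a black line for the median. Calcr at 2.07 stands apart from the other 5 tested osteoclast response genes, which lie between -0.26 and 0.20, and M cell markers have the highest median, 2.52.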

How the data were processed

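Bulk ATAC-seq libraries of 3 RANKL-treated and 3 control organoid cultures were analysed, and all members and gene lists were chosen with earlier results of these data known. The authors deposited raw read counts in 200-bp windows, per the file headers, and a score per 2-kb window around the same centres. Judged by its values, this deposited score holds, library by library, natural logs of 1 plus the count that were standardised to mean 0 and unit SD. Inverting it gave numbers no farther than 0.0058 from integers. Per the submitters' processing notes, the tools included MACS2 2.2.7, DESeq2 1.34.0, Picard, BWA 0.7.17 and fastp 0.20.1, and the builds mm10 and GRCm38. Their roles, how windows were chosen, Tn5 shifting and duplicate removal were not stated in these sources, and duplicates or partial coverage of broad regions could change low counts.

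Window starts were read as counted from 0 and are printed from 1. Gene ends were those of RefSeq (GRCm38.p6), and 38509 windows (69.9%) lay within 50 kb of one. Windows and gene sums were tested over the whole table with edgeR 4.0.16 in R 4.3.3 (TMM, filterByExpr, robust quasi-likelihood, no covariate), calls being made at a Benjamini-Hochberg adjusted p of 0.05 or less. SE is the absolute log2 fold change over the root of F. Alternatives were RLE factors, DESeq2 1.42.0, no filter, an experiment block, leaving out each library, thinning, other window assignments, 2-kb counts and loess offsets (limma 3.58.1), the last and the alternatives of the 2-kb counts added after seeing the data. The labels number experiments 1 to 3 in both groups, without saying what same-numbered cultures shared, and deviations from group means of same-numbered libraries correlated at -0.03, 0.02 and -0.01.

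Named genes were all 10 members with all their windows, for each list the called genes lowest in adjusted p (at most 3), all tested NFAT and MiT paralogs, the flanking gene of a called window and the 3 genes most like Nfatc1. The text marks any others. No sequence is printed for the Calcr window.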

Additional observations from a re-analysis of the deposited data

How the results depend on the processing

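The Calcr window was called higher in every setting that tested it, with log2 fold changes of 2.19 to 2.87 at 200 bp and 1.74 to 2.22 in 2-kb counts. Restricted to windows within 5 kb of a gene end, 0 windows of the 10 genes, 0 2-kb windows and 0 gene sums were called higher, since the Calcr window lies farther out. Windows called lower, 1 in all, numbered 0 with DESeq2, without a filter, with the replicate block, after thinning, within 5 kb and in 2-kb counts, and 0 to 2 without a library each. In 2-kb counts loess offsets gave 2 higher, with the Nfatc1 window at 80655706 (0.69), and 1 lower, the window inside Oscar (-1.31), and leaving out libraries 1 to 2 higher and 0 to 1 lower. With the experiment number as a block, the members' other calls stayed as they were. Of 90 tested list genes 14 were higher and 7 lower, where 6.95% and 8.48% of all tested gene sums were. The replicate block gave 10 and 4 of 90. For the lists, DESeq2 gave 5 and 2 of 97 tested, thinning 9 and 4, and windows within 5 kb 7 and 1. Sums of 2-kb counts gave 17 and 13, where 9.25% and 12.5% of all tested 2-kb gene sums were called. Leaving out a library gave 7 to 14 and 2 to 8, of 88 to 93 tested (7 and 2 without RANKL replicate 3, 7 and 3 without control replicate 2, 9 and 4 without control replicate 1). Shares called over all genes are not given for the block, DESeq2, thinning, the 5-kb limit or the fits without a library. Whether the lists lost more calls there than all genes did is therefore not shown.

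Some estimates changed sign, none with a call under both signs. With RLE factors the Traf6 2-kb window was at 0.0022. After thinning, the sums of Nfatc1, Traf6 and Oscar were 0.084, 0.20 and 0.15, that of Tfe3 -0.013 and the Traf6 2-kb window 0.077. Within 5 kb, the sums of Nfatc1, Traf6 and Src were 0.45, 0.11 and -0.042, Src having been called. In 2-kb counts the Traf6 and Mitf windows were at -0.019 and -0.21 and the sums of Nfatc1, Mitf and Nfatc2 at 0.13, -0.16 and 0.034, and with loess offsets the Traf6 and Mitf 2-kb windows at 0.20 and 0.044. Without a library each, the ranges were -0.41 to 0.039 for the Acp5 sum, -0.24 to 0.048 for Nfatc1, -0.20 to 0.11 for Oscar, -0.14 to 0.10 for Traf6, -0.013 to 0.45 and -0.14 to 0.12 for the Traf6 window at 200 bp and 2 kb, and -0.069 to 0.34 for the Oscar 2-kb window at 3595251. The cause of these changes was not tested.
At 200 bp depth limits 17 of the 25 windows to a description, 2 were tested at neither width, and no leave-one-out estimate exists where a window then fell below the filter.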
